A study of Mus musculus with 6 samples.

Results

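Collagen chains were followed through Foxp1 transfection of STHdh cells, an immortalized cell line of mouse striatal origin. The members were all array probes whose gene symbol starts with Col, a number, the letter a and a number, which gave 59 of 25697 probes and 37 of 18120 gene symbols. Of these, 56 probes named 36 collagen chains. The other 3 probes carried the symbol Col4a3bp, whose product is a ceramide transfer protein and no collagen, and were kept apart from all collagen counts. The reference lists 44 mouse collagen genes of this naming pattern, so 8 had no member. Among the 8, Col26a1 and Col6a6 each had 1 probe under an older name (Emid2 and E330026B02Rik), detected on 0 arrays, and no probe was found here for Col6a3, a further chain of type 6 collagen.

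Total RNA of 6 samples was labelled with biotin and read on Illumina beadchips. The control samples, 3 in number, are titled with the plasmid name pcDNA and given as wild-type. The other 3, titled mFoxp1, are given as transfected with Foxp1, a forkhead transcription factor. Both groups are the same cell line, and the labels name no dose, time, sorting step or separate cultures, so p-values measure only how far these samples scatter, which may be technical scatter. In such bulk RNA, a change in the number of expressing cells and a change of RNA per cell cannot be told apart.

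Collagens are secreted or membrane proteins built as trimers of chains with long repeats in which glycine recurs at a fixed interval. Fibrillar collagens assemble into the cross-linked fibrils of connective tissue, basement membrane collagens form sheets under epithelia and around vessels, and type 6 collagen forms beaded microfilaments beside cells. Collagens of the FACIT class (fibril-associated collagens with interrupted triple helices) sit on the surface of fibrils. In brain, collagens are found mainly in the vessel wall and the meninges.

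The type 6 chains stood lowest relative to control. Both detected probes of Col6a1 lay lower with Foxp1, and 1 passed an adjusted p of 0.05, by 0.68 on the log2 scale or 1.61-fold. The second probe (difference -0.78) and that of Col6a2 missed the threshold (limma adjusted p = 0.0594 and 0.0502). These passed with the replicate number as a block. Col2a1, the cartilage fibril chain, also passed, higher at 1 of 2 probes, but that probe was detected on 0 control arrays and met the filter only through the Foxp1 arrays, which fixed its direction. The other 21 of 23 collagen probes that met the detection filter did not pass, and of all tested probes 2.61% passed. Of the 18 collagen probes detected on all 6 arrays 17 lay below control, against 50.9% of all probes so detected. Some chains gave more than 1 of these probes, which are not replicates, and the share was not tested.

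The promoters of the type 6 chains and of the neighbouring chains Col4a6 and Col4a5 are given first. Col6a1 and Col6a2 lie next to each other in the genome and both had negative differences. Col4a6 and Col4a5 are another of the 4 neighbouring pairs with both chains past the filter. Col4a1 with Col4a2 and Col3a1 with Col5a2 also met that condition, and their promoters are not printed. The windows run from 250 bases before to 50 bases after the gene start (RefSeq, GRCm38.p6, 5′ to 3′). Capitals mark matches on either strand to the motifs searched: the forkhead core TAAACA, the longer forkhead motif TGTTTAC, the Sp1 box GGGCGG and CCAAT. The longer forkhead motif contains the core, and the last pair of Sp1 boxes in the first Col6a2 window overlap.
Col6a1, chr10:76725995-76726294, minus strand: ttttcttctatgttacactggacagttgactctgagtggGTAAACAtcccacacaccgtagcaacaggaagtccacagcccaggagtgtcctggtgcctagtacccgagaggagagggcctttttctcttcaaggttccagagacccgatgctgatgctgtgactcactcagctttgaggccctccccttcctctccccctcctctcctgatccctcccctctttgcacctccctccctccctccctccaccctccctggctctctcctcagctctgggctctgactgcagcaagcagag
Col6a2, chr10:76623355-76623654, minus strand: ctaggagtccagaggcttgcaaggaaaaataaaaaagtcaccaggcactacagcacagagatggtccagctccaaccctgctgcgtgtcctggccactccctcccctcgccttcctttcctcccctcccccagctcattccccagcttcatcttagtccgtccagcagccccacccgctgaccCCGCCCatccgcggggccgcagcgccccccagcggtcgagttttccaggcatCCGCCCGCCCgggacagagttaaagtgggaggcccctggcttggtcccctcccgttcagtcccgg
Col6a2, second start, chr10:76623581-76623880, minus strand: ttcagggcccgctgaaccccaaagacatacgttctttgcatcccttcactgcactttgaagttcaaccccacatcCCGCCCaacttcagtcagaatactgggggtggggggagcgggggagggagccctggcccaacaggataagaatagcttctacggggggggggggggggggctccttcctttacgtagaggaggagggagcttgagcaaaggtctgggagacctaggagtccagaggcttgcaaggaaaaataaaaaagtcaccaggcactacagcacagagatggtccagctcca
Col4a6, chrX:141474027-141474326, minus strand: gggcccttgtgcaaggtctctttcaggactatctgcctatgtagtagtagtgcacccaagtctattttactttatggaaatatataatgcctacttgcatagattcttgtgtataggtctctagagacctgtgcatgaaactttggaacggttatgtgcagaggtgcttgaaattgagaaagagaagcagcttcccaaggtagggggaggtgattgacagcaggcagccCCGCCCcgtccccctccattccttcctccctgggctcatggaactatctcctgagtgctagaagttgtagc
Col4a5, chrX:141475169-141475468, plus strand: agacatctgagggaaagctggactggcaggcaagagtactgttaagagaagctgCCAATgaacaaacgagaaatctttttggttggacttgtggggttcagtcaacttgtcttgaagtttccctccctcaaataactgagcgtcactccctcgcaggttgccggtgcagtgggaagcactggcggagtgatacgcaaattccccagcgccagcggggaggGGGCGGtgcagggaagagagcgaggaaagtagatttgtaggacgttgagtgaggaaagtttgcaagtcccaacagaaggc

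The table of promoters held 32 windows for 29 of the 36 chains. The longer forkhead motif stood in 1 of them, that of Col6a1, from 211 to 205 bases before the gene start, against 3.65% of all 32851 promoter windows. The shorter core stood in 5 of the 32 (15.6%, against 13.4% of all windows): those of Col6a1, Col3a1 and Col11a2, which met the detection filter, and of Col13a1 and Col24a1, which did not. Neither Col6a2 window nor that of Col4a6 held it. The Sp1 box stood in 19 of the 32 windows (59.4%, against 35.7%) and CCAAT in 12 (37.5%, against 37.4%). Median GC content was 59.0% in windows of chains past the filter, 61.7% in those of the other chains and 52.7% in all windows, and the part of GC content in the Sp1 share was not tested. These are matches of letters in short windows and say nothing of binding.

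The transfected gene served as a check of the labels. The Foxp1 probe read 688, 621 and 1048 in controls 1 to 3 and 4967, 4979 and 5250 with Foxp1. Its log2 difference was 2.62 ± 0.17 (SE, limma adjusted p = 0.0005). Here and below, a level is a background-corrected, quantile-normalized log2 intensity, a difference is Foxp1-transfected minus control over 3 arrays per group, and adjusted p-values come from limma with Benjamini-Hochberg adjustment over 12136 probes. Each array detected between 45.9% and 48.0% of all probes. Before normalization both arrays numbered 3 were brighter than the rest, with a median intensity of 77.0 in control and 64.5 with Foxp1 against 29.2 to 38.3 on the other arrays. Intensities are therefore given in replicate order as a record of signal, and comparisons rest on the normalized levels. Replicate numbers stand in both groups' titles, and the fit with the number as a block is given wherever it changed a call.

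A probe counted as detected where its detection p was under 0.05, and met the filter where this held on at least 3 of the 6 arrays. Of the 56 collagen probes 23 met it (41.1%, against 47.2% of all probes), and they covered 18 of the 36 chains. By class, 7 of 13 fibrillar probes (types 1, 2, 3, 5 and 11), 7 of 13 basement membrane probes (types 4, 15 and 18), 3 of 4 type 6 probes, 3 of 9 FACIT probes and 3 of 17 probes of all other types met it. Detection was all or none for basement membrane and type 6 probes, with 7 and 3 of them on all 6 arrays and the rest on 0. Over all classes 18 of 56 collagen probes (32.1%) were detected on all 6 arrays and 30 (53.6%) on 0, against 42.9% and 47.8% of all probes. Fibrillar probes included 4 detected on some arrays only.

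**Figure D1:**
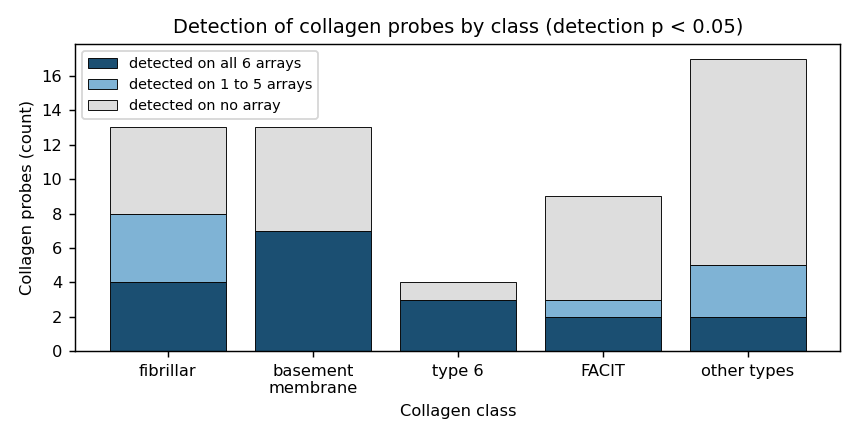
Number of collagen probes (vertical axis) in each class by the number of arrays that detected them. Basement membrane and type 6 probes were detected on all 6 arrays or on 0, and 12 of the 17 probes of other types on 0.

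The 18 chains with no probe past the filter were Col1a2, the partner of Col1a1 in type 1 collagen; the basement membrane chains Col4a3, Col4a4 and Col15a1; the fibrillar chains Col5a3 and Col11a1; the FACIT chains Col9a2, Col9a3, Col14a1 and Col19a1; and Col8a2, Col10a1, Col13a1, Col17a1, Col23a1, Col24a1, Col27a1 and Col28a1. Types 24 and 27 also form fibrils but lie outside the fibrillar class as drawn here. The Col1a2 probe read -10.6, -1.78 and -12.1 in controls and -18.5, -16.2 and -28.1 with Foxp1, all below 0 after background subtraction, while Col1a1 was bright on all 6. A probe without signal does not show that a transcript is absent. The chains Col3a1, Col4a6, Col6a1, Col7a1, Col9a1, Col18a1 and Col25a1, 7 in all, each had both a probe that met the filter and at least 1 that did not. For Col6a1, probe ILMN_2589422 was detected on 0 arrays while the other 2 were detected on all 6. Of 3 further probes detected on 1 or 2 arrays, 2 named Col17a1, a collagen of hemidesmosomes, and 1 Col5a3.

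Over all 12136 tested probes, 2.61% passed an adjusted p of 0.05 (1.55% higher and 1.06% lower). Of the 23 collagen probes, 1 passed higher (Col2a1) and 1 lower (Col6a1). With the replicate block, 1 passed higher and 3 lower, all 3 of type 6, where 3.67% of all probes passed, 2.02% higher and 1.65% lower. The groups did not overlap for 11 of the 23 collagen probes, 3 higher and 8 lower. Of all tested probes 24.7% did not overlap (11.4% higher and 13.4% lower). The 3 higher were both Col2a1 probes and 1 of Col25a1. They met the filter only through the Foxp1 arrays, which fixed their direction, so their count is no result about these chains. The median difference over the 23 was -0.18, against -0.0026 over all tested probes.

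The filter bears on the direction of dim members. Of the 23 probes, 4 were detected on all 3 Foxp1 arrays and on at most 1 control array, so they met the filter only through the group where they were brighter. These were both Col2a1 probes, that of Col11a2 and 1 of Col25a1. Counted over probes that met the filter or not, 4 of 56 collagen probes had that pattern, against 117 of 25697 probes (0.455%). The reverse pattern, all 3 control arrays and at most 1 Foxp1 array, held for 0 collagen probes and 0.401% of all probes. Among the 18 collagen probes detected on all 6 arrays, 17 had a negative difference and 1, Col7a1, a positive one, with a median of -0.26. Among all probes detected on all 6 arrays, 50.9% were negative. Col4a6, Col6a1 and Col18a1 each gave more than 1 of the 18 probes, and the share was not tested.

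**Figure D2:**
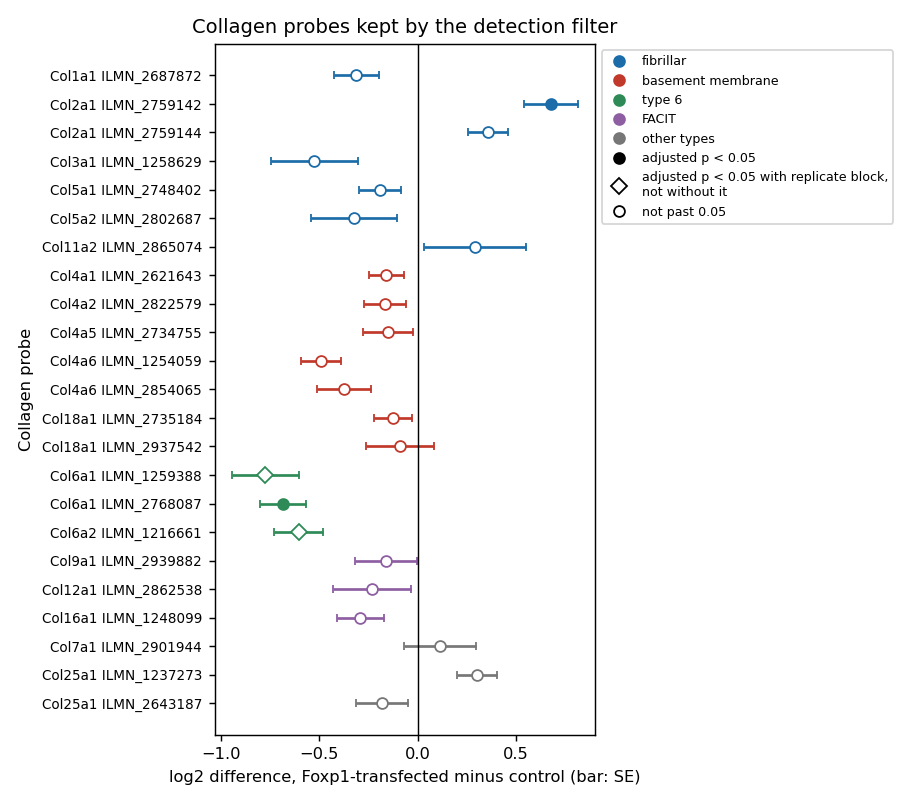
Log2 difference, Foxp1-transfected minus control, with its standard error for each collagen probe that met the detection filter, coloured by class. Filled symbols passed an adjusted p of 0.05, diamonds passed with the replicate block and not without it, and the 3 type 6 probes lie farthest to the left.

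Type 6 collagen is secreted by connective tissue cells and by Schwann cells, and defects of its chains cause muscle disease in humans. Probe ILMN_2768087 of Col6a1 read 3892, 3150 and 7534 in controls 1 to 3 and 2834, 2480 and 3824 with Foxp1. Each Foxp1 array was dimmer than the control array of its number, and after normalization the groups did not overlap. Normalized levels were 12.25 ± 0.19 without and 11.57 ± 0.058 with Foxp1 (SD, n = 3 each). The difference was -0.68 ± 0.12 (SE), which is 1.61-fold lower (limma adjusted p = 0.0277, and 0.0282 with the replicate block), and it was -0.74, -0.48 and -0.82 within replicate numbers 1 to 3.

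The second Col6a1 probe, ILMN_1259388, read 1719, 1492 and 4158 in controls and 1291, 908 and 2092 with Foxp1. Here too every Foxp1 array lay below all control arrays after normalization. Levels were 11.21 ± 0.24 and 10.44 ± 0.27 (SD, n = 3 each), a difference of -0.78 ± 0.17 (SE, limma adjusted p = 0.0594). Within replicate numbers the difference was -0.68, -0.84 and -0.80, and with the block the probe passed (limma adjusted p = 0.0135, SE 0.089).

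Col6a2 encodes the chain that pairs with that of Col6a1 and lies beside it on chromosome 10. Its probe ILMN_1216661 read 269, 221 and 499 in controls and 190.5, 189 and 243 with Foxp1. The groups did not overlap, with levels of 8.43 ± 0.15 and 7.83 ± 0.18 (SD, n = 3 each). The difference of -0.60 ± 0.13 (SE) missed the threshold (limma adjusted p = 0.0502) and passed with the block (0.0405), with -0.67, -0.38 and -0.76 within replicate numbers.

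**Figure D3:**
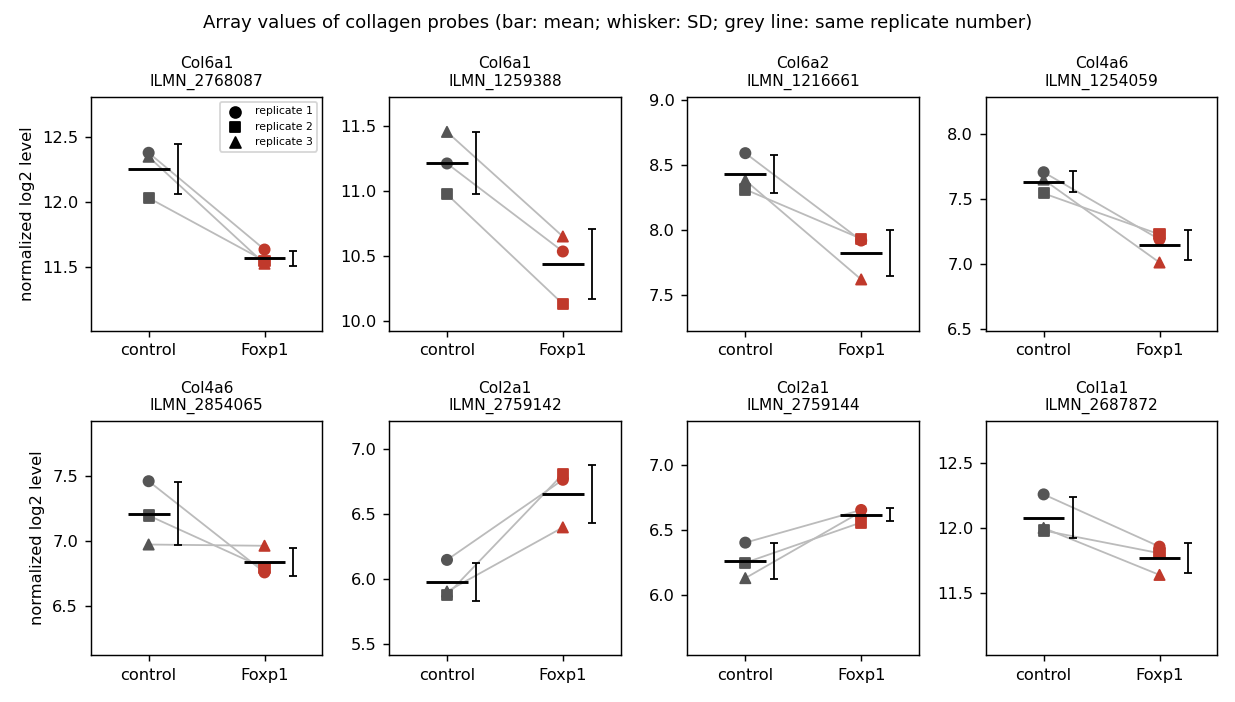
Normalized log2 level (vertical axis) of 8 collagen probes on the 3 control and 3 Foxp1 arrays, with group means, SD whiskers and grey lines joining arrays of the same replicate number. The 3 type 6 probes (Col6a1, Col6a1 and Col6a2) lie lower with Foxp1 in every replicate number, both Col2a1 probes lie higher, and the second Col4a6 probe differs by -0.0097 between the replicate 3 arrays.

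The calls of the type 6 probes did not hold in all fits, and fits without arrays rest on fewer samples. Of all probes, 317 passed in the main fit. Without control replicate 1, 118 passed, and without Foxp1 replicate 1, 2 or 3, 37, 35 and 117. The call of Col6a1 ILMN_2768087 was lost without control replicate 1 (difference -0.62, limma adjusted p = 0.0953) or Foxp1 replicate 1 (-0.71, 0.109). It was also lost without Foxp1 replicate 2 (-0.67, 0.146) or Foxp1 replicate 3 (-0.67, 0.0828). The same held without both replicate 3 arrays (-0.63, 0.0781) and with no detection filter (0.0525) for this probe. Over the 15 alternatives its difference ran from -0.79 to -0.56, and those of ILMN_1259388 and Col6a2 from -0.89 to -0.62 and from -0.66 to -0.51. These last 2 probes each passed in 5 of the 15: with the replicate block, an offset of 50, detection on all 6 arrays, the authors' processed values or array weights (adjusted p from 0.0135 to 0.0453 for ILMN_1259388 and from 0.0277 to 0.0448 for Col6a2).

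Basement membrane chains gave small differences, apart from Col4a6. Col4a1 and Col4a2, which assemble into the type 4 network found in nearly all basement membranes and whose genes lie head to head, had differences of -0.16 ± 0.090 and -0.16 ± 0.11 (SE, limma adjusted p = 0.404 and 0.465). Col4a1 read 4892, 4865 and 8625 in controls and 4967, 4809 and 7406 with Foxp1. Col4a2 read 3141, 3091 and 5348 in controls and 3429, 2965 and 4267 with Foxp1. After normalization the groups did not overlap for Col4a1 (-0.28, -0.14 and -0.054 within replicate numbers) and overlapped for Col4a2. Col18a1, the precursor of endostatin, had differences of -0.12 ± 0.097 and -0.087 ± 0.17 at its 2 detected probes (adjusted p = 0.546 and 0.834).

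Col4a6, a chain of the basement membranes of smooth muscle and some epithelia, had a difference of -0.49 ± 0.10 (SE) at probe ILMN_1254059, just short of the threshold (limma adjusted p = 0.0502, and 0.0544 with the block). Its intensities were 136, 124 and 294 in controls and 109, 112 and 155 with Foxp1, and the groups did not overlap. The second detected probe, ILMN_2854065, read 112, 93.2 and 177 in controls and 76.7, 79.55 and 149 with Foxp1. Its difference was -0.37 ± 0.14 (adjusted p = 0.213), with -0.70, -0.41 and -0.0097 within replicate numbers. Col4a5, its neighbour on the X chromosome and the chain altered in most human Alport syndrome, had -0.15 ± 0.13 (adjusted p = 0.584) and groups that overlapped.

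Of 8 neighbouring collagen pairs in the genome, 4 had both chains past the filter: Col6a1 with Col6a2, Col4a1 with Col4a2, Col4a6 with Col4a5, and Col3a1 with Col5a2 (-0.53 and -0.32). All 8 of these chains, taken at their brightest probe, had negative differences. Whether neighbours were more alike than other chains was not tested.

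Among fibrillar chains, those of types 1, 3 and 5 had negative differences and those of types 2 and 11 positive ones. This split was noticed after the values were seen, and the 3 probes of types 2 and 11 are among the 4 that met the filter only through the Foxp1 arrays. Col1a1, the main chain of skin and bone fibrils, read 3588, 3056 and 5966 in controls and 3315, 2962 and 4133 with Foxp1. Its groups did not overlap after normalization (12.08 ± 0.16 and 11.77 ± 0.11, SD, n = 3 each), but the difference of -0.31 ± 0.11 (SE) did not pass (limma adjusted p = 0.209). Col3a1, which joins type 1 in the fibrils of elastic tissues, read 244, 264 and 913 in controls and 230, 203 and 460 with Foxp1. Its difference was -0.53 ± 0.22 (adjusted p = 0.265, and 0.0606 with the block), the groups overlapped, and it was -0.30, -0.52 and -0.75 within replicate numbers.

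Col5a1 and Col5a2, chains of the type 5 collagen that starts fibril assembly, had -0.19 ± 0.11 and -0.32 ± 0.22 (SE, limma adjusted p = 0.393 and 0.481). Col5a1 read 3469, 3051 and 6230 in controls and 3725, 3035 and 4709 with Foxp1. Col5a2 read 96.2, 82.4 and 372 in controls and 109, 92.2 and 170 with Foxp1. The groups overlapped for both, and for Col5a2 the replicate 3 arrays alone gave -0.83 against -0.066 and -0.071 at the other numbers.

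Col2a1, the main fibril chain of cartilage and vitreous, read 33.5, 24.99 and 65.1 in controls at probe ILMN_2759142, detected on 0 of 3 arrays, and 77.2, 81.2 and 94.2 with Foxp1, detected on all 3. The normalized groups did not overlap. Since it met the filter only through the Foxp1 arrays, it could only be higher there, and its fitted difference of 0.68 ± 0.14 (SE, limma adjusted p = 0.0477, and 0.0357 with the block) is given as a description and not as a change. Because no control array detected it, the Foxp1 mean was also set against the lowest level of any detected probe on each control array. It lay 1.31-fold above that level. This value rests on the same Foxp1 arrays and carries no error, so it too is a description and not a change. The call was lost without control replicate 1 (adjusted p = 0.0794), 2 (0.161) or 3 (0.0732), with no detection filter (0.0971), with no normexp step (0.0514) and with an offset of 50 (0.0538), and the probe did not meet the filter without a Foxp1 array.

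The second Col2a1 probe, ILMN_2759144, read 44.8, 40.9 and 86.5 in controls, detected on 1 array, and 70.7, 65.6 and 115 with Foxp1, detected on all 3. After normalization every Foxp1 array lay above all control arrays, with a difference of 0.36 ± 0.10 (SE, limma adjusted p = 0.124). Col11a2, a chain of the type 11 collagen in the core of cartilage fibrils, was detected on the same numbers of arrays and had 0.29 ± 0.26 (adjusted p = 0.602) with overlapping groups. All these levels lay close to the detection limit.

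Of the FACIT chains, Col16a1, found in skin and smooth muscle, read 1588, 1536 and 4020 in controls and 1624, 1510 and 2527 with Foxp1. Its normalized groups did not overlap, and its difference was -0.29 ± 0.12 (SE, limma adjusted p = 0.252). Col12a1, a chain bound to type 1 fibrils in tendon and ligament, had -0.23 ± 0.20 (adjusted p = 0.589), and Col9a1, a cartilage chain detected on 2 control arrays and 1 Foxp1 array, -0.16 ± 0.16 (0.643).

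Among the remaining types, Col7a1, the chain of the anchoring fibrils under the epidermis, had 0.11 ± 0.18 (SE, limma adjusted p = 0.795), a value that was -0.086 without control replicate 3 and -0.20 without both replicate 3 arrays. Col25a1, a transmembrane collagen of neurons, gave opposite signs at its 2 probes past the filter. Probe ILMN_1237273 read 40.4, 35.9 and 77.5 in controls, detected on 1 array, and 57.7, 62.4 and 96.3 with Foxp1, detected on all 3. Its difference was 0.30 ± 0.10 (adjusted p = 0.175). Probe ILMN_2643187, detected on all 6 arrays, had -0.18 ± 0.13 (0.515). With neither past the threshold, no direction is given for this gene. The 3 Col4a3bp probes, which name no collagen, had 0.35 ± 0.10, 0.34 ± 0.11 and 0.059 ± 0.19 (adjusted p = 0.132, 0.149 and 0.907).

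By class, the median difference was -0.68 over 3 type 6 probes, -0.23 over 3 FACIT probes, -0.19 over 7 fibrillar probes, -0.16 over 7 basement membrane probes and 0.11 over 3 probes of other types. Restricted to probes detected on all 6 arrays, it was -0.68, -0.26, -0.32 (4 probes), -0.16 and -0.034 in the same order. Control levels spanned 8.43 to 12.25 for type 6, 6.499 to 11.17 for FACIT, 5.98 to 12.08 for fibrillar, 7.21 to 12.62 for basement membrane and 6.16 to 9.59 for other types. Levels of different probes depend on how well each probe binds, so they give no order of abundance, and differences between classes were not tested.

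Genes that make, process, bind or degrade collagen were examined beside the chains. Of 50 listed genes, 46 were on the array and 29 had at least 1 of 38 probes past the filter. Of the 38 probes, 0 rose and 2 fell at a limma adjusted p under 0.05, which 1.55% of all tested probes passed higher and 1.06% lower. At an unadjusted p under 0.05 there were 0 higher and 8 lower (21.1%, against 18.1% of all tested probes in either direction). The 2 were Loxl1, a lysyl oxidase that cross-links elastin (-0.60 ± 0.090, adjusted p = 0.0174), and Mmp2, a gelatinase that degrades denatured and basement membrane collagen (-0.51 ± 0.092, 0.0335). Both were already known to be lower from earlier results of these data. Loxl1 read 2198, 2016 and 4360 in controls and 1668, 1536 and 2498 with Foxp1, and Mmp2 read 694, 694 and 1572 in controls and 592, 539 and 909 with Foxp1. Both calls were lost without control replicate 1 or 2, any 1 Foxp1 array or both replicate 3 arrays. The limma adjusted p rose up to 0.113 for Loxl1 and 0.164 for Mmp2. Mmp2 also lost its call with median scaling, so it passed in 8 of 15 alternatives and Loxl1 in 9.

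Of the 19 probes of synthesis genes 0 passed with limma (0 higher and 3 lower at an unadjusted p under 0.05, which is 15.8% against the same 18.1%), and 18 of them had a negative difference, against 50.6% of all tested probes. Their median was -0.15. Examples were P4hb, the shared subunit of prolyl hydroxylase and a disulphide isomerase (-0.23 ± 0.098, limma adjusted p = 0.267), Fkbp14, a prolyl isomerase of the endoplasmic reticulum (-0.35 ± 0.10, 0.127), and the collagen chaperone Serpinh1 (-0.049 ± 0.15, 0.903), whose sign turned without control replicate 2 (0.058) or Foxp1 replicate 3 (0.037). Of 12 processing and cross-linking probes 11 were negative (median -0.27), among them 3 of Bmp1, which removes the C-terminal propeptide of fibrillar collagens (-0.29, -0.17 and -0.30, limma adjusted p from 0.255 to 0.435). A further Bmp1 probe, detected on 0 control and 2 Foxp1 arrays, did not meet the filter, and its mean level was 5.77 in controls and 6.23 with Foxp1. Receptors differed in sign: of 4 probes, for Itgb1 and Ddr1, 3 were positive (median 0.14). The Itgb1 probes had opposite signs (0.15 ± 0.17 and -0.032 ± 0.10, SE). For Ddr1, probe ILMN_1257585 was detected on 1 control and 2 Foxp1 arrays. None of the 4 passed (limma adjusted p from 0.434 to 0.904), so no direction is given for receptors. The collagen-binding integrin subunits Itga1, Itga2 and Itga11 and the receptor kinase Ddr2 were detected on 0 arrays.

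**Figure D4:**
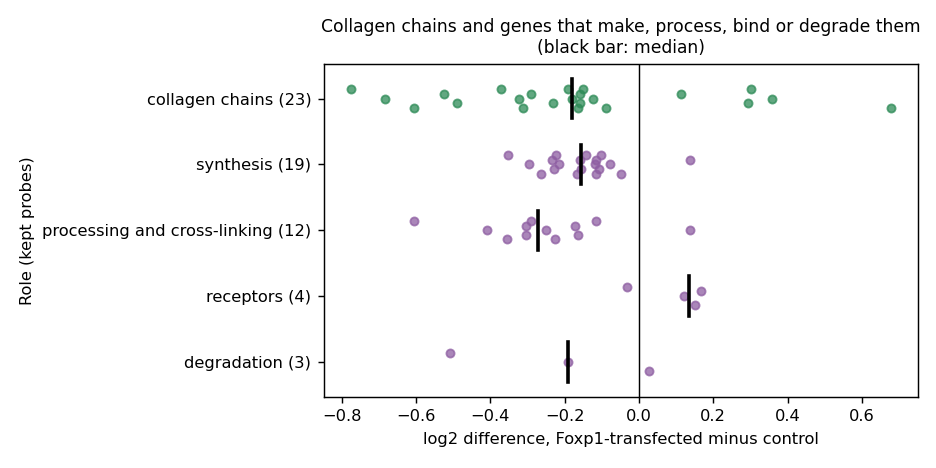
Log2 difference, Foxp1-transfected minus control, of each probe past the detection filter for collagen chains and for genes of collagen synthesis, processing, binding and degradation, with the median as a black bar. Of 19 synthesis probes 18 lie left of 0. The 4 receptor probes name Itgb1 and Ddr1 only, and 3 lie right of 0.

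Markers of cell types were read beside these values. Of the neuronal markers on the array, Snap25 and Syt1 were detected on 0 arrays, Tubb3 on 2 and Map2 on all 6 at 1 of 3 probes. Of the markers of striatal projection neurons, Drd1 and Bcl11b were detected on 0 arrays and Drd2 on 5. Ppp1r1b was detected on all 3 control arrays and on 0 Foxp1 arrays at 1 of 3 probes, which met the filter only through the control arrays. Its difference did not pass (-0.45 ± 0.13, SE, limma adjusted p = 0.124). Another Ppp1r1b probe was detected on 1 control and 1 Foxp1 array, with mean levels of 6.27 in controls and 6.42 with Foxp1. Of the astrocyte markers, Gfap, Aqp4 and S100b were detected on 0 arrays, Aldh1l1 on 3 at 1 of 4 probes, and Slc1a3 on all 6 with a difference of -0.61 ± 0.18 (SE, limma adjusted p = 0.137, and 0.0455 with the replicate block). The 4 microglial markers were detected on 0 arrays. For endothelium 3 of 4 were detected on 0 arrays and Tek on 1, and for oligodendrocytes 2 of 3 were on 0 and Mbp on 1. The summed intensity of the 8 fibroblast and pericyte markers on the array ran from 23091 to 26733 in controls and from 21960 to 26864 with Foxp1, but nearly all of it was Vim (22230 to 24561 and 21131 to 25665), so these sums of raw intensities say little of the other markers. Thy1, Lum and Rgs5 were detected on 0 arrays. The 5 markers with a probe past the filter all had negative differences, as did 50.6% of all tested probes. Of these, Pdgfrb (-0.24 ± 0.12), Dcn (-0.11 ± 0.16), Cspg4 (-0.26 ± 0.13) and Vim (-0.035 ± 0.099) did not pass (SE, limma adjusted p from 0.331 to 0.890). Pdgfra, a receptor of mesenchymal and oligodendrocyte precursor cells, fell (-0.61 ± 0.12, limma adjusted p = 0.0471, and 0.0524 with the replicate block). It read 310, 327 and 867 in controls and 268, 256 and 387 with Foxp1. Its call held in 5 of 15 alternatives: it was also lost with no normexp step (0.0619), median scaling (0.0554) and no detection filter (0.0859), and without control replicate 1 or 2, any 1 Foxp1 array or both replicate 3 arrays (adjusted p up to 0.172). Its part in the collagen values was not tested.

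**Figure D5:**
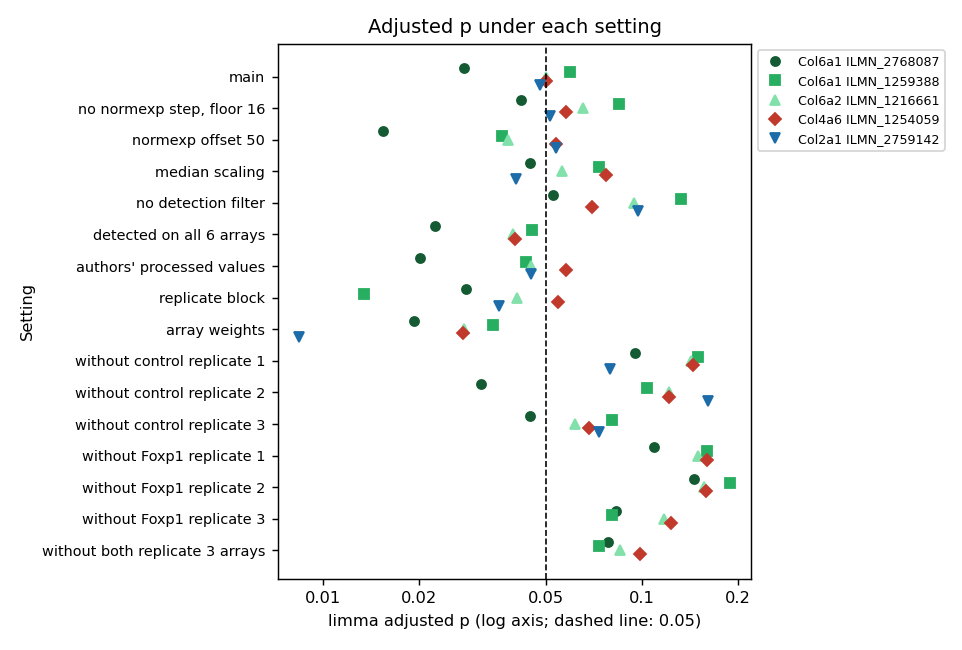
Limma adjusted p (horizontal axis, log scale, dashed line at 0.05) of the 5 collagen probes nearest to or past the threshold under each setting (vertical axis). Of 15 alternatives, 9 put Col6a1 ILMN_2768087 left of the line and 2 put Col4a6 ILMN_1254059 there.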

How the data were processed

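Gene expression of 6 samples was read on Illumina beadchips. Per the file headers, the deposited table holds a probe intensity, not normalized between arrays, and a detection p-value per probe and array; GenomeStudio is named, without a version, in the submitters' processing notes. From 29.5% to 31.6% of intensities lay below 0, so the authors had subtracted a background. A second deposited table, read as log2 values normalized by the authors (method and offset not given in the sources used here), served as an alternative.

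Intensities were corrected and quantile-normalized with neqc of limma 3.58.1 (R 4.3.3; offset 16) and put on the log2 scale, which pulls differences of dim probes towards 0. The 12136 probes detected (detection p under 0.05) on 3 or more arrays were fitted with lmFit and eBayes, 2-sided, after a test of the fit on simulated data. Groups came from the sample titles. The main fit treated the arrays as unpaired, and the replicate number entered as a block in an alternative fit only. Deviations from group means correlated at 0.257, 0.115 and 0.401 between same-numbered arrays. For number 2 this was below values across numbers (control 1 with Foxp1 2 gave 0.151, control 2 with Foxp1 1 0.121). The labels state no pairing, so a pairing by number is not established. The number of arrays limits the precision. No chip or scan date is given.

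The members, gene lists and tests were chosen with earlier results of these data known. Every chain past the filter is named. Array values are given for collagen probes past the threshold, for those with an unadjusted p under 0.05 and groups that do not overlap, for named partner chains, and for other named genes past the threshold. Pathway genes named are those past the threshold and Serpinh1, P4hb and Bmp1; others were picked after their values were seen. Older array symbols were updated through RefSeq synonyms (GRCm38.p6).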

Additional observations from a re-analysis of the deposited data

How the results depend on the processing

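The count of collagen probes past the threshold was 2 and changed with most settings. With an offset of 50 the count was 3, all lower and of type 6, without Col2a1. Median scaling left it at 2. It was 1 with no normexp step, 0 with no detection filter (13 of 56 probes at an unadjusted limma p under 0.05), 4 with detection required on all 6 arrays, 4 with the authors' processed values, 4 with the replicate block and 7 with array weights, a setting under which 1034 of all probes passed against 317; of all probes 207 passed with no filter and 35 to 373 without single arrays. It was 0 to 1 when single arrays were left out (6 to 9 at an unadjusted p under 0.05 where it was 0: without control replicate 1 or any 1 Foxp1 array), and 0 without both replicate 3 arrays (7 at an unadjusted p under 0.05) (a setting added once values had been seen). Fits without arrays also rest on fewer samples. The collagen pathway count of 2 was 1 with median scaling, 0 without both replicate 3 arrays (10 at an unadjusted p under 0.05) and 0 to 2 when single arrays were left out. The fibrillar median of -0.19 was -0.13 with no detection filter, -0.32 with detection on all 6 arrays, -0.10 with array weights, -0.12 without both replicate 3 arrays and -0.30 to -0.050 without single arrays. The median over all collagen probes was -0.10 with no filter, -0.26 with detection on all 6 arrays and -0.28 to -0.16 without single arrays. The FACIT median of -0.23 was -0.11 with no filter, -0.32 to -0.13 without single arrays (-0.13 without Foxp1 replicate 3) and -0.12 without both replicate 3 arrays, and that of other types -0.086 to 0.22 without single arrays. Signs turned for Col7a1 (-0.074 with array weights, -0.086 without control replicate 3, -0.20 without both replicate 3 arrays), Col12a1 (-0.36 to 0.0079 without single arrays) and the Col18a1 probe ILMN_2937542 (0.031 with array weights, -0.23 to 0.10 without single arrays, 0.066 without both replicate 3 arrays) and Serpinh1 (0.058 and 0.037 without control replicate 2 and Foxp1 replicate 3). The causes were not tested. With detection p under 0.01, 17 of 56 collagen probes met the filter in place of 23. The replicate block changed no collagen call beside those of Col6a1 ILMN_1259388 and Col6a2. Foxp1 passed under all 15 alternatives (2.51 to 2.78 without single arrays). Dim probes such as those of Col2a1 and Col11a2 lie near background, where their differences are least certain.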
